A study of Mus musculus with 10 samples.

Results

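The MYC, MAX and MXD network was described in splenic B cells with or without the transcription factor IRF4. Its 10 genes were taken by symbol: Myc, Mycn and Mycl, the partners Max and Mlx, and the antagonists Mxd1, Mxi1, Mxd3, Mxd4 and Mnt. All 10 were on the array, with 24 of the 34945 probe sets that the platform annotation ties to a single gene (10 of 18193 genes). A probe set is a group of short probes against 1 transcript. The samples were 5 arrays of Irf4+/+ cells, with both Irf4 alleles intact, and 5 of Irf4-/- cells, with both disrupted. Both groups came from littermate mice aged 12 weeks, and the strain was C57BL/6. Cells other than B cells were depleted magnetically from spleen, and the remainder was grown for 3 days with an antibody to CD40 (1 mg/ml as the labels state it) and IL-4 at 20 ng/ml. Both genotypes received both stimuli, and no unstimulated sample was analysed here. Whether the 5 samples were separate mice or cultures is not in the labels, and the p-values cover only their spread, possibly a technical one.

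MYC proteins are transcription factors that work only in a pair with MAX. The pair binds the E-box, a short DNA motif, and raises transcription of genes for ribosome assembly, nucleotide and polyamine synthesis and cell division. The MXD proteins and MNT compete for MAX and for the same motif, and bring the SIN3 repressor complex to it. MLX is a partner related to MAX that serves MondoA and ChREBP, sensors of glucose metabolites. In lymphocytes MYC is induced on activation and drives the growth that precedes division, while several MXD genes are known from resting or differentiating cells.

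Values are MAS5 signals, linear brightness units on arrays scaled to a common trimmed mean of 250. Fold changes are on the log2(signal + 7.9) scale, which understates changes of dim genes. Tests are limma fits over all genes or all probe sets, Benjamini-Hochberg adjusted, and called means an adjusted p under 0.05. Signals of different probe sets have no common scale, so levels were not ranked between genes. The precision is limited by the number of arrays.

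The genotypes differed widely, also in transcripts used as markers of other cell types. Of 12253 genes tested, 47.2% were called. Irf4 transcript was still measured in Irf4-/- arrays, at 2638.2 to 2988.7 against 3426.4 to 3978.4 in Irf4+/+ arrays on its brighter probe set (log2 fold change -0.43, SE 0.0536, adjusted p = 5.01e-06). The sources used here do not place that probe set relative to the disrupted part, so it does not check the genotype. Of 10 B cell markers, 9 had a probe set and all 9 were higher in Irf4-/- cells (Cd79b, Fcer2a, Cd22 and Ms4a1 by 2.21-fold, 1.86-fold, 1.67-fold and 1.62-fold). Of 14 natural killer markers 12 were tested and all 12 were higher, with a summed signal of 1367.1 to 1595.2 in Irf4+/+ and 11962.7 to 16329.9 in Irf4-/- arrays. Gzma and Gzmb made up most of both sums (means 818.6 and 362.0 in Irf4+/+, 8256 and 4867.8 in Irf4-/- arrays). Gzmb, Gzma and Prf1, which encode granzymes and perforin, rose 13.2-fold, 9.94-fold and 4.91-fold. The size for Prf1 came from a probe set that can be shared between transcripts. Leaving such sets out shrank its log2 rise to 0.41 and lost the call (adjusted p = 0.207). Averaging its 2 tested sets kept the call, at 1.35 (adjusted p = 7.84e-06). The cytokine receptor gene Il2rb rose 9.98-fold, from 15.8 ± 6.99 near the floor in Irf4+/+ arrays. Of the 13 natural killer markers with a probe set, 8 were dim in Irf4+/+ arrays, and Klrc1 was dim in both genotypes. The dim ones that were tested passed the filter only through their Irf4-/- arrays, so the filter fixed their direction. Of 15 macrophage markers 7 were tested and Chil3, Adgre1, Cd68 and Lyz2 were higher. Their list had a summed signal of 487 to 568.8 in Irf4+/+ and 1571 to 1934.8 in Irf4-/- arrays. Chil3 passed the filter only through Irf4-/- arrays (4.66 ± 3.85 in Irf4+/+ arrays). Csf1r, Fcgr1 and Mrc1 were not called (log2 fold changes 0.29, -0.01 and -0.01). Csf1r was called higher on averaging its probe sets (0.55, adjusted p = 0.00469). The defining Cd14, Itgam, C1qa, C1qb, Apoe, Marco and Cd163 were dim in Irf4-/- arrays. Of 12 T cell markers 4 were tested, Cd5 was higher, Cd28 lower and Cd8a and Lat not called, and Cd3e, Cd3d, Cd3g, Cd4 and Cd8b1 were dim in Irf4-/- arrays. No marker read exactly 0 on any array. The 18S ribosomal RNA control was 3.00-fold higher on its 3′ probe set (69.0 ± 20.2 and 207.1 ± 66.1; SD, n = 5; exact two-sided permutation p = 0.00794, the smallest that 5 against 5 allows). Its 5′ and middle probe sets were 3.92-fold and 4.3-fold higher, with the same permutation p. The part of these differences in the results that follow was not tested. In these bulk samples fewer cells of a type and less RNA per cell cannot be told apart.

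Within the network, Myc and its antagonist Mxi1 fell, and the antagonists Mxd4 and Mxd1 rose, in Irf4-/- cells. Of the 9 members tested, 4 were called, 2 higher and 2 lower. That share lies near the background: 47.2% of all genes were called, 23.3% higher and 23.9% lower. For the same 4 members the groups did not overlap on the brightest probe set, which held for 35.7% of all genes. At the level of probe sets, 17 of 24 passed the filter on dim signal and 9 of these were called, 6 higher and 3 lower, where 42.5% of all probe sets were called, 21.1% higher and 21.4% lower. On 9 of the 17 every Irf4-/- array lay to the same side of every Irf4+/+ array, as on 31.5% of all probe sets. The members therefore did not move as a block, and the size and direction of each is given by role.

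**Figure D1:**
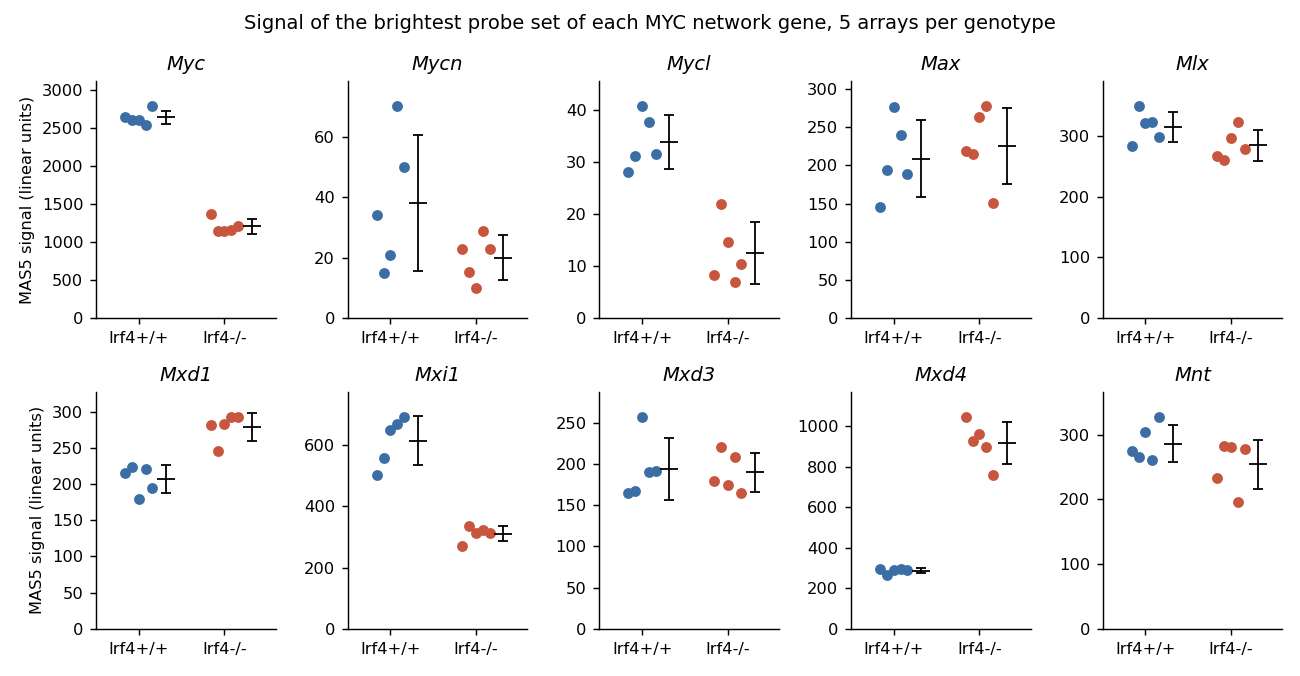
MAS5 signal (vertical axis, linear units from 0) of the brightest probe set of each of the 10 genes, with 1 point per array, Irf4+/+ in blue and Irf4-/- in red, and black bars for the mean ± SD of 5 arrays. The groups are apart for Myc, Mycl, Mxd1, Mxi1 and Mxd4, and overlap for Mycn, Max, Mlx, Mxd3 and Mnt.

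Myc, the activator of the network, was bright in both genotypes. Its single probe set read 2645.5, 2606.6, 2608.5, 2542.9 and 2781.3 in the 5 Irf4+/+ arrays. In the 5 Irf4-/- arrays it read 1365.9, 1147.4, 1140.6, 1163.7 and 1205.6. Every Irf4-/- array lay far below every Irf4+/+ array, and replicate 1 was the highest of its group. Myc fell 2.19-fold (95% confidence interval 2.01 to 2.38; log2 fold change -1.13, SE 0.058, adjusted p = 1.38e-10), to 45.7% of the Irf4+/+ mean. It was among the steadiest probe sets of the network, with a coefficient of variation of 3.36% in Irf4+/+ and 7.77% in Irf4-/- arrays. Counting from the largest fall, Myc ranked 240 of the 12253 genes. The probe set is of a type that can be shared between transcripts (suffix _a_at), and Myc has no other on the array.

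The other MYC paralogs were dim. Mycn, the paralog of embryonic and neural tissue, passed the filter with 1 of its 3 probe sets, which read 14.9 to 70.1 (median 34.3) in Irf4+/+ and 10.0 to 29.0 (median 22.8) in Irf4-/- arrays. The groups overlapped, and Mycn was not called (log2 fold change -0.62, 95% confidence interval -1.38 to 0.13, adjusted p = 0.167). The 2 further Mycn probe sets lay lower still, at 3.1 to 49.3 and 2.5 to 27.3 in the 2 genotypes, and neither was called in the fit without a filter (adjusted p = 0.416 and 0.783).

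Mycl, a paralog known from dendritic cells and lung cancer, had 3 probe sets and none passed the filter. The brightest read 28.1, 31.2, 40.7, 37.7 and 31.5 in Irf4+/+ arrays. In Irf4-/- arrays it read 8.4, 21.9, 14.7, 7.0 and 10.5, below every Irf4+/+ value. In the fit over all 34945 probe sets without a filter, all 3 Mycl probe sets were called lower, with log2 fold changes of -1.07 (SE 0.259, adjusted p = 0.00507), -0.84 (SE 0.295, adjusted p = 0.0477) and -1.41 (SE 0.265, adjusted p = 7.12e-04). In that fit 26.4% of probe sets were called, 13.2% lower. The groups were separate on 2 of the 3, against 21% of all probe sets without the filter. These signals lie near the floor of the array (the 40th percentile of all values was 26.1), so the sizes depend on the pseudocount.

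Neither shared partner was called. Max, the obligate partner of MYC and a partner of the antagonists, read 145.4, 194.4, 276.1, 239.9 and 189.1 in Irf4+/+ arrays. Its Irf4-/- values were 219.1, 214.8, 264.0, 277.2 and 151.4, with almost the same span. Max was not called (log2 fold change 0.11, 95% confidence interval -0.25 to 0.47, adjusted p = 0.643). That interval still holds changes of up to 1.38-fold upwards, and with Irf4+/+ replicate 1 left out the estimate was -0.01.

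Mlx, the partner of MondoA, had a pair of probe sets with opposite signs. The brighter gave -0.14 (95% confidence interval -0.32 to 0.04) and the dimmer 0.16 (-0.01 to 0.33) on the log2 scale, and neither was called (adjusted p = 0.208 and 0.131 over all probe sets). The dimmer set separated the groups, at 204.5 to 248.0 in Irf4+/+ and 255.8 to 272.5 in Irf4-/- arrays, by a narrow margin. No direction was therefore assigned to Mlx.

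Among the antagonists, Mxd4 had the largest change of the called members. MXD4 is a repressor of the MXD family that is known from resting and differentiating cells. Its brightest probe set read 297.8, 263.9, 290.3, 297.4 and 291.1 in Irf4+/+ arrays. In Irf4-/- arrays it read 1046.1, 926.9, 961.8, 897.1 and 761.7, all far above the highest Irf4+/+ value. Mxd4 rose 3.12-fold (95% confidence interval 2.77 to 3.51; log2 fold change 1.64, SE 0.0803, adjusted p = 7.79e-11) and ranked 273 of 12253 from the largest rise.

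The other Mxd4 probe sets did not all follow. The next in brightness rose from 114.7 ± 16.7 to 456.5 ± 76.3 (SD, n = 5; log2 fold change 1.92, adjusted p = 1.62e-09). The third rose from 68.0 ± 19.3 to 147.8 ± 16 (log2 fold change 1.07, adjusted p = 8.40e-05). The dimmest read 43.8 to 64.6 in Irf4+/+ and 42.1 to 58.7 in Irf4-/- arrays and was not called (log2 fold change -0.07, 95% confidence interval -0.45 to 0.31, adjusted p = 0.791). Which transcripts of Mxd4 each set detects was not determined. The average over the 4 probe sets was a log2 rise of 1.14 (adjusted p = 2.68e-07).

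Mxi1, the antagonist also called MXD2, went the opposite way. Its brighter probe set read 501.2, 558.6, 648.5, 669.4 and 690.8 in Irf4+/+ arrays. The Irf4-/- values were 270.6, 335.8, 313.1, 322.1 and 311.5, all below them. Mxi1 fell 1.94-fold (95% confidence interval 1.70 to 2.23; log2 fold change -0.96, SE 0.0925, adjusted p = 2.63e-07). Its dimmer probe set fell too, from 161.7 ± 18.5 to 87.6 ± 23.2 (log2 fold change -0.87, adjusted p = 7.19e-04 over all probe sets), with no overlap between the groups. Irf4-/- replicate 1 stood apart on that set, at 46.3 against 94.5 to 100.7 in the other arrays of its group.

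Mxd1, the founding MXD repressor, known from differentiating myeloid and epithelial cells, rose by a smaller amount. Its brightest probe set read 215.4, 224.0, 178.8, 220.6 and 194.0 in Irf4+/+ arrays. In Irf4-/- arrays it read 280.9, 245.1, 283.3, 292.4 and 292.3, all above them. Mxd1 rose 1.34-fold (95% confidence interval 1.17 to 1.53; log2 fold change 0.42, SE 0.0888, adjusted p = 8.78e-04). A dimmer set gave the same size with overlapping groups (log2 fold change 0.43, adjusted p = 0.035 over all probe sets). Its call was lost without Irf4+/+ replicate 4 or 5 or without Irf4-/- replicate 1, 2, 3 or 4 (adjusted p = 0.0975, 0.09, 0.0832, 0.0591, 0.0596 and 0.0682), with quantile normalization (0.0982), with each array centred on its median (0.0798), without a variance trend (0.0525) and without the filter (0.0657). The third Mxd1 set did not pass the filter (4.1 to 26.4 and 7.5 to 27.8) and was not called in the fit without one (adjusted p = 0.586).

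Mxd3, the MXD member known from dividing cells, gave no single answer. Its brightest probe set read 164.9, 167.1, 256.7, 189.9 and 190.9 in Irf4+/+ and 179.4, 220.3, 174.9, 208.6 and 164.9 in Irf4-/- arrays. These groups overlapped fully and Mxd3 was not called (log2 fold change -0.02, 95% confidence interval -0.28 to 0.24, adjusted p = 0.908). Its next set read 20.9, 56.4, 91.8, 60.8 and 80.4 in Irf4+/+ and 111.4, 106.2, 109.1, 104.1 and 100.6 in Irf4-/- arrays. That set was called higher (log2 fold change 0.82, SE 0.253, adjusted p = 0.0147 over all probe sets). The dimmest gave a similar 0.80 with overlapping groups and was not called (adjusted p = 0.0706). It was called without Irf4+/+ replicate 2 or 5 (adjusted p = 0.0294 and 0.0338). Averaging the 3 sets moved the log2 fold change to 0.53, still not called (adjusted p = 0.056).

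Mnt, a MAX-bound repressor present in most cells, was not called. Its brighter probe set read 275.2, 264.9, 303.4, 260.7 and 327.0 in Irf4+/+ and 232.7, 281.7, 281.4, 196.5 and 277.6 in Irf4-/- arrays. The lowest values were in Irf4-/- arrays, but the groups overlapped (log2 fold change -0.18, 95% confidence interval -0.40 to 0.05, adjusted p = 0.201). Its other set was dim (3.8 to 32.9 and 5.3 to 27.6) and was not called without the filter (adjusted p = 0.859).

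**Figure D2:**
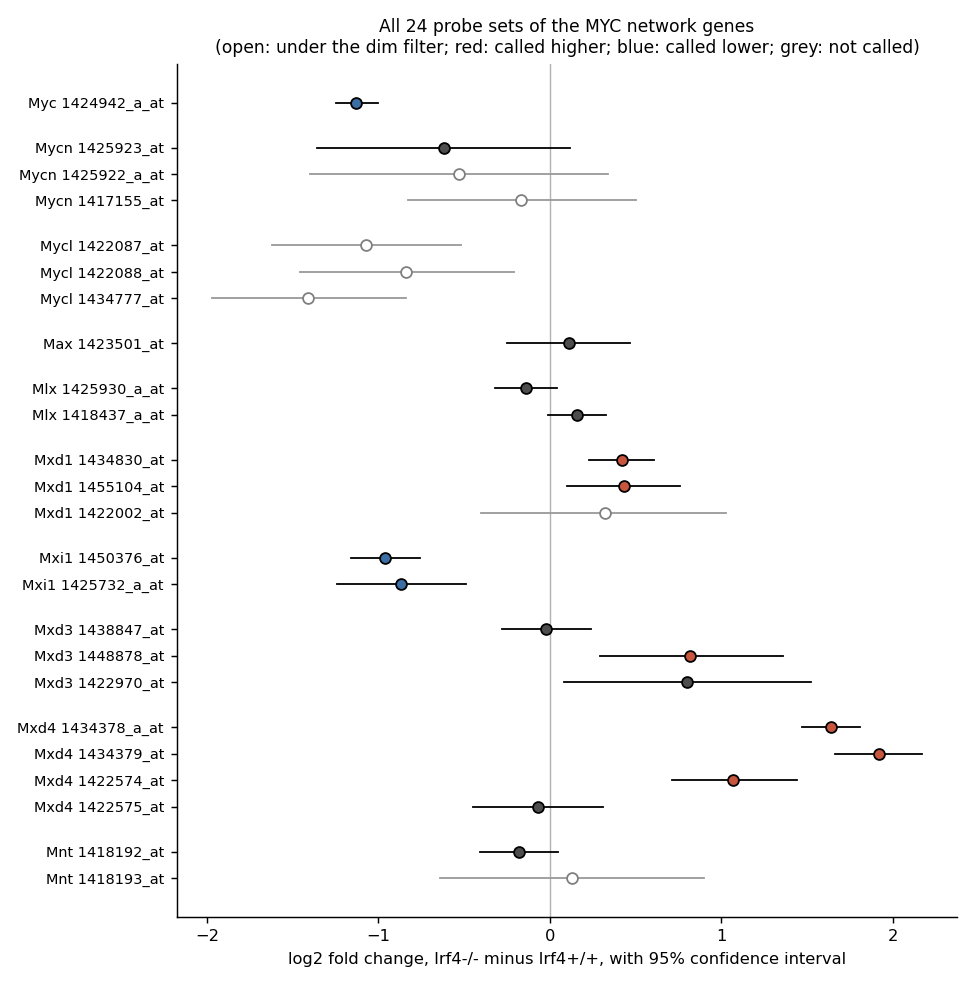
Log2 fold change, Irf4-/- minus Irf4+/+ (horizontal axis), for each of the 24 probe sets of the 10 genes, with bars for the 95% confidence interval from limma. Filled points passed the filter (red called higher, blue called lower, dark grey not called), and open points are from the fit without a filter. The Myc set and both Mxi1 sets lie left of 0, 3 of 4 Mxd4 sets lie right of 1, and the Mlx and Mxd3 sets disagree among themselves.

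The balance of Myc against each antagonist was followed within each array, where the scaling of the array cancels. For each array the log2 value of the antagonist was subtracted from that of Myc and the Irf4+/+ mean of that difference was set to 0. These differences are a description with no test, and they show unequal change of a pair of probe sets, not their relative amounts. Against Mxd4 the 5 Irf4-/- arrays lay at -2.78, -2.85, -2.92, -2.79 and -2.50, and the Irf4+/+ arrays between -0.10 and 0.11. The mean of -2.77 ± 0.158 (SD, n = 5) is a 6.81-fold shift of Myc relative to Mxd4.

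Against Mxd1 the shift was -1.55 ± 0.131, or 2.93-fold, with Irf4-/- arrays from -1.66 to -1.38. Against Mxd3 it was -1.11 ± 0.232 on the brightest set, and against Mnt -0.95 ± 0.272 (SD, n = 5). In these comparisons too the genotypes did not overlap. Against Mxi1 it was only -0.17 ± 0.218, with Irf4-/- arrays from -0.35 to 0.20 and Irf4+/+ arrays from -0.19 to 0.28. Here the genotypes overlapped, as both genes fell. Against Max the shift was -1.24 ± 0.372 and against Mlx -0.99 ± 0.194, again without overlap. On their brightest sets Mxd3, Mnt, Max and Mlx were not called. Shifts against these genes therefore largely repeat the fall of Myc itself (log2 fold change -1.13).

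**Figure D3:**
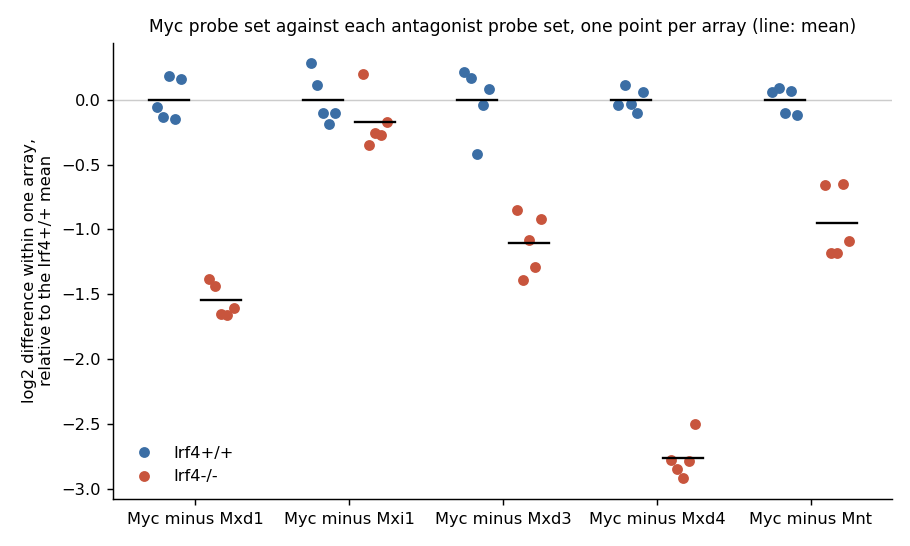
Log2 difference between the Myc probe set and the brightest probe set of each antagonist within 1 array (vertical axis, relative to the Irf4+/+ mean), with 1 point per array and a line at the mean of each genotype. Irf4-/- arrays lie lowest against Mxd4 (mean -2.77) and overlap with Irf4+/+ arrays against Mxi1 (mean -0.17).

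Other genes that bind MAX or MLX were tested beside the members. Mga, a large MAX-binding repressor, gave -0.06 on the log2 scale (adjusted p = 0.666), and Mlxip, which encodes MondoA, 0.03 (adjusted p = 0.792). Neither was called. Mlxipl, which encodes ChREBP, was dim in both genotypes and was not tested with the filter. The arrestin-domain genes Arrdc4 and Txnip are known targets of MondoA and MLX and restrain glucose uptake. Arrdc4 rose from 26.0 ± 7.99 to 62.8 ± 7.43 (log2 fold change 1.08, adjusted p = 5.18e-04), near the floor in Irf4+/+ arrays. Txnip fell slightly, from 1257 ± 69.1 to 1106.5 ± 59.3 (SD, n = 5; log2 fold change -0.18, adjusted p = 0.0168), a call lost without Irf4+/+ replicate 4 (adjusted p = 0.0506). The pair of MondoA targets therefore moved in opposite directions.

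Genes that MYC is known to activate fell almost throughout. The list, 61 genes that include those of ribosome assembly, chaperones, metabolism and cell division, was written with earlier results of these data known. Of the 56 tested, 51 fell, 1 rose and 4 were not called (92.9% called, against 47.2% of all genes). The median log2 fold change was -0.58, against 0.00 over all genes tested. Gnl3, a nucleolar GTPase, fell 2.53-fold from 3009.8 ± 302 to 1179 ± 33.3 (SD, n = 5; log2 fold change -1.34, adjusted p = 8.09e-11). Srm, the spermidine synthase, fell 2.40-fold from 3675.3 ± 365 to 1527.6 ± 124 (adjusted p = 4.67e-10). Nolc1, a nucleolar assembly factor, fell 2.14-fold and Hk2, which phosphorylates glucose, 2.11-fold.

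The exceptions in that list were few. Dusp2, a phosphatase of MAP kinases and the only gene of the list that rose, went from 549.7 ± 57.8 to 1268 ± 117 (log2 fold change 1.20, adjusted p = 4.75e-09). Aimp2, Hspe1, Rabepk and Cbx3 were not called (log2 fold changes -0.18, -0.12, -0.12 and 0.09). Their values were known when these 5 were singled out. Cbx3 rested on 1 tested probe set of low signal (47.3 ± 15.6 in Irf4+/+ and 51.1 ± 16.1 in Irf4-/- arrays). Of the tested sets, 1 of 2 for Hspe1 and 2 of 4 for Rabepk had the opposite sign. For Aimp2 a fall was called on averaging its sets (-0.30, adjusted p = 0.00155), with sets that can be shared left out (-0.41, adjusted p = 8.32e-05), with median centring (adjusted p = 0.028), with array weights (adjusted p = 0.0356), and without Irf4+/+ replicate 3 or Irf4-/- replicate 1 (adjusted p = 0.0178 and 0.0318). Farsa, Pes1 and Prmt3, among the genes that fell, were not called with the mean of their probe sets (0.06, 0.09 and -0.18, adjusted p = 0.639, 0.329 and 0.228). With sets that can be shared left out, Farsa and Tcof1 were not called (0.19 and 0.0, adjusted p = 0.318 and 0.963). The classical targets Odc1, the rate-limiting enzyme of polyamine synthesis, and Ncl, which encodes nucleolin, fell 1.44-fold and 1.34-fold.

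The E-box letters CACGTG are shown here because they are the site for which MYC, MXD and MNT proteins compete, each paired with MAX. They read the same on both strands. RefSeq promoter windows (GRCm38.p6, 250 bases before to 50 after a start site) were matched by symbol for 9 of the 10 members, 11 windows in all, and 4 of the 11 held the motif. Of the 62 windows of 55 activated targets 19 held it (30.6%), against 9.70% of the 12669 windows of genes tested on the arrays and 7.15% of all 32851 windows. Of 17 windows of the repressed targets 3 held it (17.6%). In capitals is the motif, in a stretch of up to 30 bases read 5′ to 3′ on the strand of the gene, for the 4 members and for the 4 activated targets with the motif and the smallest p (a choice made after the values were seen):
Mxd4 (chr5:34187912-34187941, minus strand): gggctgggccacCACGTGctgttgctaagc
Mnt (chr11:74830789-74830818, plus strand): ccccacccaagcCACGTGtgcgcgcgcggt
Mlx (chr11:101087238-101087267, plus strand): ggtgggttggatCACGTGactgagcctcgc
Max (chr12:76962234-76962263, minus strand): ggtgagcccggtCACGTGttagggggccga
Ipo4 (chr14:55635653-55635682, minus strand): tgtcggagtctcCACGTGccgatcctcccc
Hspd1 (chr1:55088306-55088335, minus strand): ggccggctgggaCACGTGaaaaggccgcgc
Utp20 (chr10:88826765-88826789, minus strand): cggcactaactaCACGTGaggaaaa
Mybbp1a (chr11:72441355-72441376, plus strand): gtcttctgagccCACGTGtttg

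The windows of Mycn, Mycl, Mxd1, Mxd3 and Mxi1 (3 windows) did not hold these letters. Among the 4 members with the motif only Mxd4 was called, and its motif starts 219 bases before the start site. The motif starts 123 bases before the start in Mnt, 40 before it in Mlx and 3 before it in Max, and these 3 genes were not called. The 250 bases before the Mxd4 start (chr5:34187711-34187960, minus strand), shown because it is the called member that holds the motif, have a GC content of 58% and read, with the motif in capitals:
Mxd4: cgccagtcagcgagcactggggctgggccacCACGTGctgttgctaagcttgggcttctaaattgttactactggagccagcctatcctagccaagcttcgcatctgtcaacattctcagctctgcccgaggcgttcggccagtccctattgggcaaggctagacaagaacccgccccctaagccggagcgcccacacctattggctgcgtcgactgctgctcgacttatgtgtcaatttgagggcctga

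The motif did not divide the activated targets by their change. Of 16 tested targets with a window that holds it, 15 fell and 1, Dusp2, rose, with a median log2 fold change of -0.58. Of 35 tested targets whose windows lack it, 31 fell, and the median was also -0.58. Ipo4, an importin, fell 2.05-fold, Hspd1, a mitochondrial chaperonin, 1.76-fold, Utp20, a ribosome assembly factor, 1.87-fold and Mybbp1a, a nucleolar protein, 2.07-fold. A match of letters is a description of the window and not evidence of binding.

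Genes that MYC is known to repress did not move together. Of 16 in the list 14 were tested: 4 rose, 3 fell and 7 were not called, a share of calls close to the 47.2% of all genes. Their median log2 fold change was 0.06. The growth inhibitor Btg1 rose 1.79-fold from 4755 ± 92.9 to 8517.5 ± 188 (adjusted p = 1.06e-10), Gadd45b, a stress response gene, 2.39-fold (adjusted p = 1.40e-07), and Cdkn2b, which encodes the CDK4 and CDK6 inhibitor p15, 2.90-fold from 67.0 ± 14.2 to 206.8 ± 23.2 (SD, n = 5; adjusted p = 2.21e-07). Ndrg1, a stress-induced gene, fell 2.07-fold. The cell cycle inhibitor genes Cdkn1a and Cdkn1b, the best known of the repressed genes, were not called (log2 fold changes -0.08 and 0.06, adjusted p = 0.658 and 0.496). Without Irf4+/+ replicate 2, Cdkn1a was called lower (log2 fold change -0.25, adjusted p = 0.0205).

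Coactivators of MYC moved both ways. Of 14 tested genes 5 rose, 5 fell and 4 were not called (71.4% called, against 47.2% of all genes). With each array centred on its median, 2 rose and 5 fell, as Ep300, Trrap and Ep400 were no longer called (adjusted p = 0.0746, 0.116 and 0.301). The paired ATPases Ruvbl2 and Ruvbl1, part of the TIP60 acetyltransferase complex, fell 2.46-fold (from 2606.3 ± 196 to 1053 ± 57.7, adjusted p = 5.41e-11) and 1.86-fold (adjusted p = 1.84e-09). Wdr5, which helps MYC bind chromatin, fell 1.54-fold. Of the same TIP60 complex, Kat5, its catalytic subunit, Trrap and Ep400 rose 1.31-fold, 1.17-fold and 1.11-fold. The call for Ep400 was also lost on averaging its probe sets (adjusted p = 0.269) and without Irf4+/+ replicate 1 or 4 or Irf4-/- replicate 3 or 4 (adjusted p = 0.0725, 0.0506, 0.0548 and 0.0652). The acetyltransferase Crebbp rose 1.41-fold.

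Of the corepressors that MXD proteins recruit, a share near the background was called. Of 12 genes 9 were tested: 3 fell, 1 rose and 5 were not called (44.4% called, against 47.2% of all genes). With each array centred on its median 5 fell and Hdac1 was not called. Sap30, a subunit of the SIN3 complex, fell 1.89-fold from 1406.5 ± 112 to 740.1 ± 64.9 (SD, n = 5; adjusted p = 2.74e-08). The deacetylase Hdac2 and the histone chaperone Rbbp7 fell 1.32-fold and 1.27-fold. Hdac1 rose 1.15-fold (adjusted p = 0.0171), a call lost without Irf4+/+ replicate 4 (adjusted p = 0.0533) and with each array centred on its median (adjusted p = 0.187). The scaffolds Sin3a and Sin3b, which bind MXD proteins directly, were not called (log2 fold changes 0.09 and -0.15). The direction of Sin3b depended on its probe sets: it was called lower with quantile normalization (-0.17, adjusted p = 0.028) and without Irf4-/- replicate 1 (-0.19, adjusted p = 0.0415), and higher with probe sets that can be shared left out (0.22, adjusted p = 0.0162).

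Among regulators of MYC protein stability, 18 were tested, 8 fell, 2 rose and 8 were not called (median log2 fold change -0.17). The share called, 55.6%, stands beside 47.2% of all genes. The kinase Pim2 fell 2.56-fold from 1146.1 ± 112 to 440.7 ± 14.4 (adjusted p = 1.47e-10) and the mitotic kinase Aurka 1.42-fold. The ubiquitin ligase Huwe1 fell 1.58-fold on its brightest set, while 3 of its 5 tested sets had the opposite sign. The deubiquitinase Usp7 rose 1.28-fold on a probe set that can be shared between transcripts, with all 7 of its tested sets of the same sign. Fbxw7, the ligase best known for degrading MYC, was tested and not called (adjusted p = 0.280, log2 fold change -0.07). With the mean of each gene's probe sets only 5 of the 18 were called, and Aurka and Huwe1 were not among them (adjusted p = 0.122 and 0.141).

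**Figure D4:**
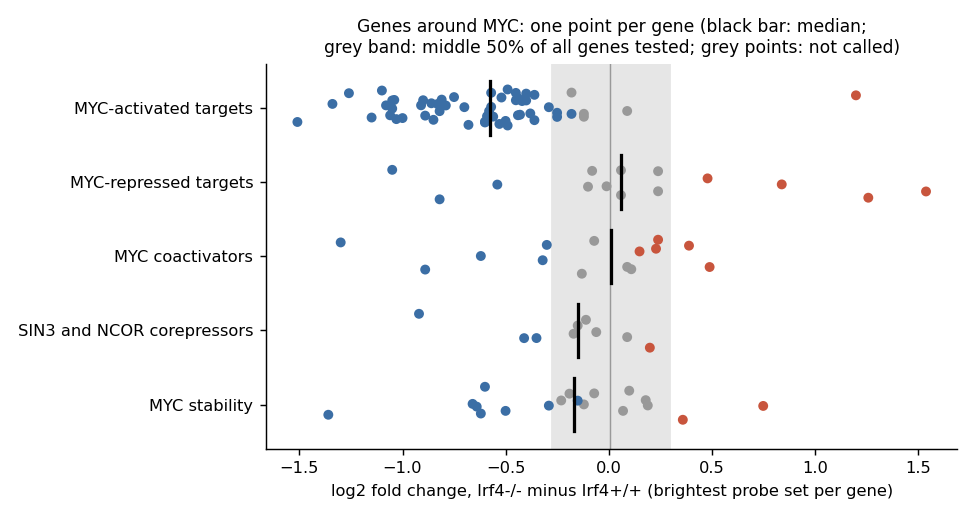
Log2 fold change, Irf4-/- minus Irf4+/+ (horizontal axis), of the tested genes of 5 lists, with 1 point per gene (blue called lower, red called higher, grey not called), a black bar at the median of each list and a grey band for the middle 50% of all genes tested (-0.27 to 0.30). Most activated targets and their median of -0.58 lie left of the band, with Dusp2 to its right, and the medians of the other lists lie within it.

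The genes whose profile over the 10 arrays was nearest to that of Myc were Lyar, Atp8b2, Tagln2, Tns3 and Cldnd1. Nearness was the root mean square difference of the log2 values centred on each gene's mean, which was 0.0633 for Lyar, a nucleolar zinc finger gene, and 0.0716, 0.0744, 0.0804 and 0.0898 for the others. Lyar went from 2030.1 ± 49.5 to 932.1 ± 88.3 (SD, n = 5). All 5 had fold changes between 2.07 and 2.32, close to that of Myc, since the measure rests mainly on the difference between the genotypes.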

How the data were processed

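The authors deposited a linear intensity for every probe set on each array. Per the submitters' processing notes the tool was MAS5; no source used here names its version. The mean without the outer 2% at each end was 250 on all 10 arrays, so they were not scaled again. Of 45101 probe sets 34945 had 1 gene symbol, 932 several and 9160 none here, and 64 were controls. Symbols were updated through RefSeq gene IDs (GRCm38.p6, 34741 matched).

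Values became log2(signal + 7.9), 7.9 being the 20th percentile of all values. Probe sets with a mean over all arrays under 25.1, the 40th percentile of these means, were left out. The probe set with the highest mean stood for a gene (12253 tested), and a further fit kept every probe set (22535). limma 3.58.1 in R 4.3.3 (lmFit, eBayes with trend) had genotype as its only term. Confidence intervals are at 95%.

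Members and lists were chosen with earlier results of these data known. The text names all 10 members, every gene of lists of up to 3 genes, the 4 genes with the smallest p in longer lists and the 5 genes nearest to Myc; others named were chosen after their values were seen. Dim means under 25.1. Same-numbered samples of the genotypes did not deviate together (correlations from -0.04 to 0.05), so the numbers were not taken as pairs. Alternatives were other pseudocounts (1 and 32), filters, scalings, array weights, variance models, other probe set choices, a block for the replicate number, an exact permutation test and each array left out.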

Additional observations from a re-analysis of the deposited data

Results flagged for a closer look

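In 48 groups of 5 values (24 probe sets, 2 genotypes), 10 had an array far from the other 4 by Dixon's gap test, where chance flags about 1 in 20 groups. Irf4-/- replicate 1 was high for Myc (1365.9; the others 1140.6 to 1205.6), low for the dimmer Mxi1 set (46.3; 94.5 to 100.7) and high for a dim Mycn set (16.7; 4.6 to 7.0). Irf4-/- replicate 2 was low for Mxd1 (245.1; 280.9 to 292.4). Irf4+/+ replicate 2 was low for the brightest Mxd4 set (263.9; 290.3 to 297.8), replicate 3 was high for the brightest Mxd3 set (256.7; 164.9 to 190.9) and for the dimmest Mxd4 set (64.6; 43.8 to 49.2), replicate 4 was low for the dimmer Mlx set (204.5; 238.2 to 248.0) and high for the same dim Mycn set (28.9; 3.1 to 8.4), and replicate 5 was high for the dimmest Mxd1 set (26.4; 4.1 to 10.1). The calls for Myc, Mxi1, Mxd4 and Mxd1 on their brightest sets were kept without each of these arrays.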

How the results depend on the processing

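Myc, Mxi1, Mxd1 and Mxd4 kept their direction and their calls under every alternative that could test them. The exact permutation test gave each of these genes p = 0.00794, which was not adjusted. With probe sets that can be shared between transcripts left out, Myc and Mlx could not be tested, and 3 members were called. The log2 fold changes of Myc, Mxi1, Mxd1 and Mxd4 ranged from -1.19 to -1.11, -1.03 to -0.91, 0.36 to 0.47 and 1.14 to 1.92. With the mean of the probe sets Mxd3 turned to 0.53 and Mlx to 0.01, the regulators of MYC stability had 5 calls in place of 10, and the shift of Myc within arrays was -1.66 against Mxd3 and -2.27 against Mxd4. The filter at the 60th percentile left 1 of the pair of MondoA targets to test. With each array left out in turn, Max ranged from -0.01 to 0.24, Mxd3 from -0.08 to 0.08, the member probe sets called from 8 to 10 and the MondoA targets called from 1 to 2 (1 without Irf4+/+ replicate 4). With the replicate number as a block the same number of members was called (4), and 10 in place of 9 probe sets, the addition being the dimmest Mxd3 set (adjusted p = 0.042). The corepressors then had 6 calls in place of 4, Sin3b among them (adjusted p = 0.0313), and Ep400 was not called (adjusted p = 0.0504); 1 of 10 samples correlated best with its own number in the other genotype. Without the filter 5 members were called, Mycl being the addition. The lists for MondoA and for other MAX partners were put through the alternatives after the data were seen. Dim probe sets limit Mycn, Mycl and the dimmer sets of Mxd1, Mxd3, Mxd4 and Mnt.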
